A study of Mus musculus with 8 samples.

Results

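The genes described here encode the receptors through which hematopoietic growth factors act: *Kit*, *Flt3*, *Csf1r*, *Csf2ra*, *Csf2rb*, *Csf2rb2*, *Csf3r*, *Il3ra* and *Il6ra*. These 9 genes were chosen by name, out of 21757 protein-coding genes of the mouse annotation, and not by a rule on measured values, although earlier results of these data were known. Their loops were those H3K27ac HiChIP interactions in which 1 of the paired 5 kb bins held the start site of the gene's canonical transcript, called promoter loops below. In total, 24 of 80489 listed interactions met this rule in untreated p30 cells and 30 of 94609 after LPS, and the p42 lists held 58 of 158233 untreated and 30 of 78591 after LPS. HiChIP selects crosslinked chromatin with an antibody and joins, by ligation, the pieces of DNA that touch in it. The antibody used recognises H3K27ac, which marks active promoters and enhancers on histone H3.

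All cells were HPC-7, a mouse hematopoietic progenitor line with little endogenous CEBPA, grown in medium with 50 ng/mL of murine SCF, the ligand of KIT. They carried 1 isoform of the transcription factor CEBPA from a retroviral vector, either the full-length p42 or the shorter p30. By the study's methods the p30 and p42 lines were sorted for GFP and carried constitutively expressed fusions with ERT2, which keeps the protein out of the nucleus, with minor leakage, until 4-hydroxytamoxifen is given. The methods state for cells with such fusions, in general, that it was given the day before an experiment. A pair of lines with unfused isoforms was also made, and the labels do not say which pair these libraries came from. Cells of both lines were untreated (UT) or had received 100 ng/mL of LPS, a bacterial product sensed by TLR4, for 2 h, which made 4 groups of 2 replicates and 8 libraries. One pooled list of interactions per group was analysed here, so that no spread between replicates could be measured and every difference below is between those lists and not between conditions.

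The receptors fall into several structural groups. KIT, FLT3 and CSF1R are receptor tyrosine kinases for SCF, FLT3 ligand and M-CSF, and mark stem and progenitor cells, early lymphoid and myeloid progenitors, and the macrophage lineage. CSF2RA and IL3RA are the ligand-binding chains for GM-CSF and IL-3. They signal with the common beta chain CSF2RB or, for IL-3 in mice, with its paralog CSF2RB2. CSF3R is the receptor for G-CSF, the main growth factor of neutrophils, and IL6RA binds IL-6 and signals through the shared chain IL6ST. Genes of this group, *Csf3r* among them, are textbook targets of CEBPA and PU.1 during myeloid differentiation.

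The lists were not equally deep or equally long. The interaction caller had modelled 17976716 contacts in p30 UT against 18999991 in p42 UT, and 14503330 against 15831583 after LPS. Of the 4 lists, p42 UT held the most interactions from the most contacts. Numbers of loops are therefore given for the lists as deposited and for lists shortened to the 78591 interactions with the lowest q-values (lists of equal length). Where 4 values follow each other without labels, they are those of untreated p30, LPS-treated p30, untreated p42 and LPS-treated p42 cells, in that order. Bin pairs that are missing from a list have an unknown number of contacts, not 0. All 10 marker genes of stem and progenitor cells held a promoter loop in each of the 4 lists, none of the 4 T cell markers did in any list, and 1 of 3 macrophage markers (*Adgre1*) did in each. A loop was also found at 2, 1, 2 and 1 of 3 B cell markers, at 1, 0, 1 and 0 of 3 erythroid markers and at 0, 0, 1 and 0 of 3 hepatocyte markers.

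The DNA next to the start was read for 8 of the 9 genes. It is shown for the 4 whose window holds a match to 1 of 5 motifs of hematopoietic factors; the windows of *Flt3*, *Csf2ra*, *Csf3r* and *Il3ra* held none of these letters. Each sequence is the 250 bases before the outermost annotated start of the gene, read 5′ to 3′ on the gene's strand from the GRCm39 genome, and capitals mark the match. The windows lie at chr5:75735326-75735575 (plus strand) for *Kit*, chr15:78209702-78209951 (plus) for *Csf2rb*, chr15:78189922-78190171 (minus) for *Csf2rb2* and chr3:89820720-89820969 (minus) for *Il6ra*, and overlap no exon of these genes, although the *Il6ra* window overlaps an exon of *Gm42809*.
Kit: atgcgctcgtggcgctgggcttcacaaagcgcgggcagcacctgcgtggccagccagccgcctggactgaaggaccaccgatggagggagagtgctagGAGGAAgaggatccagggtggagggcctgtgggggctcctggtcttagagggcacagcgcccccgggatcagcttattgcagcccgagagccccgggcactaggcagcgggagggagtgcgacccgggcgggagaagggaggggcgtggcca
Csf2rb: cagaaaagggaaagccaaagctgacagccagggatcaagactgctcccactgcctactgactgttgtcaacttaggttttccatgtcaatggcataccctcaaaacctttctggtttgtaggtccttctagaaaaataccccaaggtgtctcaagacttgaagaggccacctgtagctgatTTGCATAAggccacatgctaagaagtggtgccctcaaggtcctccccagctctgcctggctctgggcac
Csf2rb2: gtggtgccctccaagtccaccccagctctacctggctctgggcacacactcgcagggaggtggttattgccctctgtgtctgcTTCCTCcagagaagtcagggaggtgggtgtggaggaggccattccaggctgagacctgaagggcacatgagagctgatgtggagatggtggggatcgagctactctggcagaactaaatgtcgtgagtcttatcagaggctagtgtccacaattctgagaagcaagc
Il6ra: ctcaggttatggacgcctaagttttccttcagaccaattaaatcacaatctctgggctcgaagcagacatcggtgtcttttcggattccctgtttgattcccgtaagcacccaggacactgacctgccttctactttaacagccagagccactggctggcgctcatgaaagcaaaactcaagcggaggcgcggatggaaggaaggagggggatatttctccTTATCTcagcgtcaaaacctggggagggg

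On both strands, 5 motifs were searched in these windows: TTGCNNAA for C/EBP, TGANTCA for AP-1, TGTGGT for RUNX, AGATAA for GATA and GAGGAA for PU.1 and other ETS factors. The *Csf2rb* window held a C/EBP match 69 to 62 bases before the outermost start, and 9.91% of the 21757 protein-coding promoter windows held such a match. This window lies wholly outside the start-site bin of *Csf2rb*, which begins at 78210001. The PU.1 and ETS letters stood 152 to 147 bases before the start of *Kit* and, on the other strand, 167 to 162 bases before that of *Csf2rb2*, against 22.9% of all windows. The *Csf2rb2* match lies outside the start-site bin of that gene, which ends at 78190000. A GATA match lay 29 to 24 bases before the start of *Il6ra*, against 10.5% of all windows. Of the 8 windows read, 1 thus held the C/EBP letters, 1 those of GATA and 2 those of PU.1 and ETS. AP-1 and RUNX letters, found in 6.46% and 13.8% of all windows, were in none of the 8. Between the paralogs, the last 45 bases of the *Csf2rb* window and bases 250 to 206 before the *Csf2rb2* start were alike at 41 of 45 aligned positions (91.1%). Counted from the canonical starts, which define the promoter loops, this stretch lay 283 to 239 bases before the start of *Csf2rb* and 250 to 206 before that of *Csf2rb2*.

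Of the 9 receptor genes, 7 held a promoter loop in at least 1 list: all but *Flt3* and *Il3ra*. The number was 5 and 6 in p30 cells, untreated and after LPS, and 7 and 7 in p42 cells, whereas 37.2%, 38.8%, 44.8% and 35.1% of all protein-coding genes held one in the same lists. *Csf2rb* had the most promoter loops over the 4 lists (36), followed by *Csf2rb2* (31), *Kit* (30), *Csf3r* (21), *Il6ra* (14), *Csf1r* (10) and *Csf2ra* (2). Every start-site bin with a loop carried an H3K27ac peak. So did the partner bin in 24 of 25 promoter loops of p30 UT and 58 of 59 of p42 UT, and in all 30 loops of each LPS list, where the loop between *Csf2rb* and *Csf2rb2* counts for both genes. Peaks were as common elsewhere: by list, 93.2% to 94.7% of the promoter loops of all genes had one in the partner bin. Over all 4 lists, the loops of the receptor genes reached 72 partner bins, counted per gene. Of these bins, 8 were listed in all 4 and 29 in a single list.

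As deposited, p42 UT held more promoter loops than p30 UT for 6 of 7 receptor genes and fewer for none, and 81.9% of all genes with a promoter loop in either list had more and 8.26% fewer. In lists of equal length, 4 of 7 had more in p42 UT and 3 had fewer, against 41.7% and 37.7% of all genes. With adjacent partner bins counted once in the lists as deposited, 3 of 7 had more in p42 UT and 4 had fewer, against 68.2% and 12.6% of all genes. After LPS, p42 held more loops than p30 for 3 of 7 receptor genes and fewer for 2 as deposited, where 23.6% of all genes had more and 58.7% fewer. With equal length, 4 had more and 2 fewer, against 33.7% and 46.8%. In lists of equal length, the sign was the same in both treatments at 3 genes. *Csf1r* had 0 loops in p30 UT and 3 in p42 UT, and 1 and 3 after LPS. *Csf2ra* had 0 in p30 and 1 in p42 in both treatments, and *Csf3r* had 5 and 3, and 4 and 3 after LPS.

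LPS in p30 cells went with more promoter loops for 3 of 6 receptor genes and fewer for 1 as deposited (53.1% and 27.6% of all genes), and with more for 3 and fewer for 2 in lists of equal length (42.2% and 36.8%). In p42 cells, LPS went with fewer promoter loops for 6 of 7 receptor genes and more for 0 as deposited (87.3% and 4.51% of all genes). With equal length, 2 genes had more and 2 fewer (31.8% and 46.5%). Of the 6 genes with fewer loops as deposited, 4 (*Csf1r*, *Csf2rb2*, *Csf3r* and *Il6ra*) no longer had fewer once the lists were equally long.

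**Figure D1:**
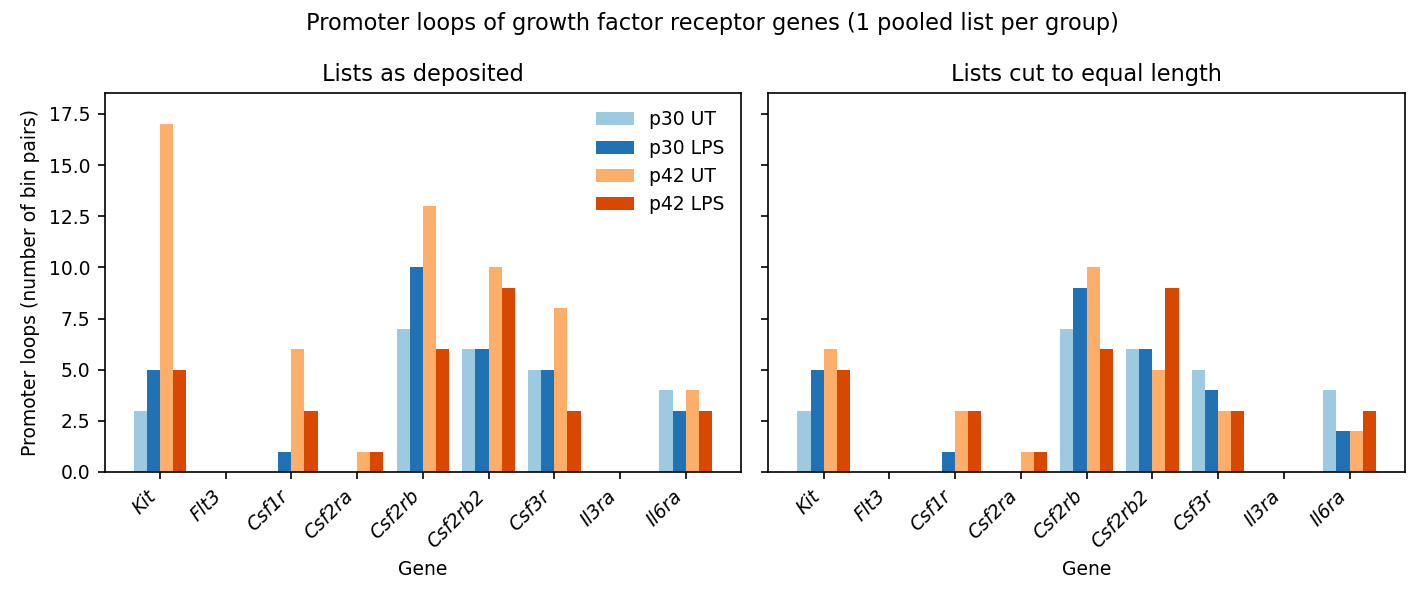
Number of promoter loops (y axis, bin pairs) of the 9 receptor genes in each pooled list, as deposited on the left and after shortening all lists to 78591 interactions on the right; bars are single lists without error. *Kit* reached 17 loops in p42 UT as deposited and 6 with equal length, and *Flt3* and *Il3ra* had none.

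*Kit*, the receptor for the SCF in the medium, lies on the plus strand at chr5:75735576-75817404 (GRCm39), with the next protein-coding start, that of *Kdr*, 404 kb away. Its promoter loops numbered 3 in p30 UT against 17 in p42 UT, and 5 against 5 after LPS, and 3, 5, 6 and 5 in lists of equal length. Its loops were long. The median distance was 195, 230, 230 and 190 kb in the same order, where all promoter loops of the lists had medians of 45 to 50 kb, and 2.49% to 5.05% of the genes with a loop had a median distance at least as long as that of *Kit*. The partner bins held no start site of a protein-coding gene, and 12 of 20 were listed only once.

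Because neighbouring bins can stand for the same contact, the partner bins of *Kit* were also joined where they touched, a step chosen after the values were seen, which left 10 stretches. A stretch 190 to 195 kb upstream was the only one reached in all 4 lists, with 10 and 12 contacts in p30 cells (UT and LPS) and 15 and 9 in p42 cells. These contacts were 6.96, 8.7, 9.43 and 6.35 times the expected count. The p42 LPS loop ended at the bin 190 kb upstream and the other 3 at the bin 195 kb upstream. The stretch 110 to 115 kb upstream had 17 contacts in untreated p42 cells and 9 after LPS and was in neither p30 list. Another, 275 to 280 kb downstream, was likewise seen in p42 UT and p42 LPS alone, with 24 and 10 contacts. Downstream stretches at 155 to 160 kb, 220 to 235 kb and 250 to 265 kb were each reached in 3 lists, and the first 2 of these included p30 UT. The bin 250 kb downstream had the highest partner coverage in both lists that held it, with 13568 reads in p30 LPS and 20681 in p42 UT.

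The shortest *Kit* loop joined the start-site bin with a bin 10 kb downstream, within an intron of *Kit*. It was listed in p30 LPS with 45 contacts and in p42 UT with 72, which were 2.14 and 2.16 times the expected counts. At the other extreme, a loop of 365 kb with 8 contacts was listed in p42 UT alone and had the only partner bin of *Kit* without a peak. Of the 17 loops in p42 UT, 12 had at least 10 contacts, and so did 2 of 3 in p30 UT and, after LPS, 3 of 5 in p30 cells and 2 of 5 in p42 cells.

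**Figure D2:**
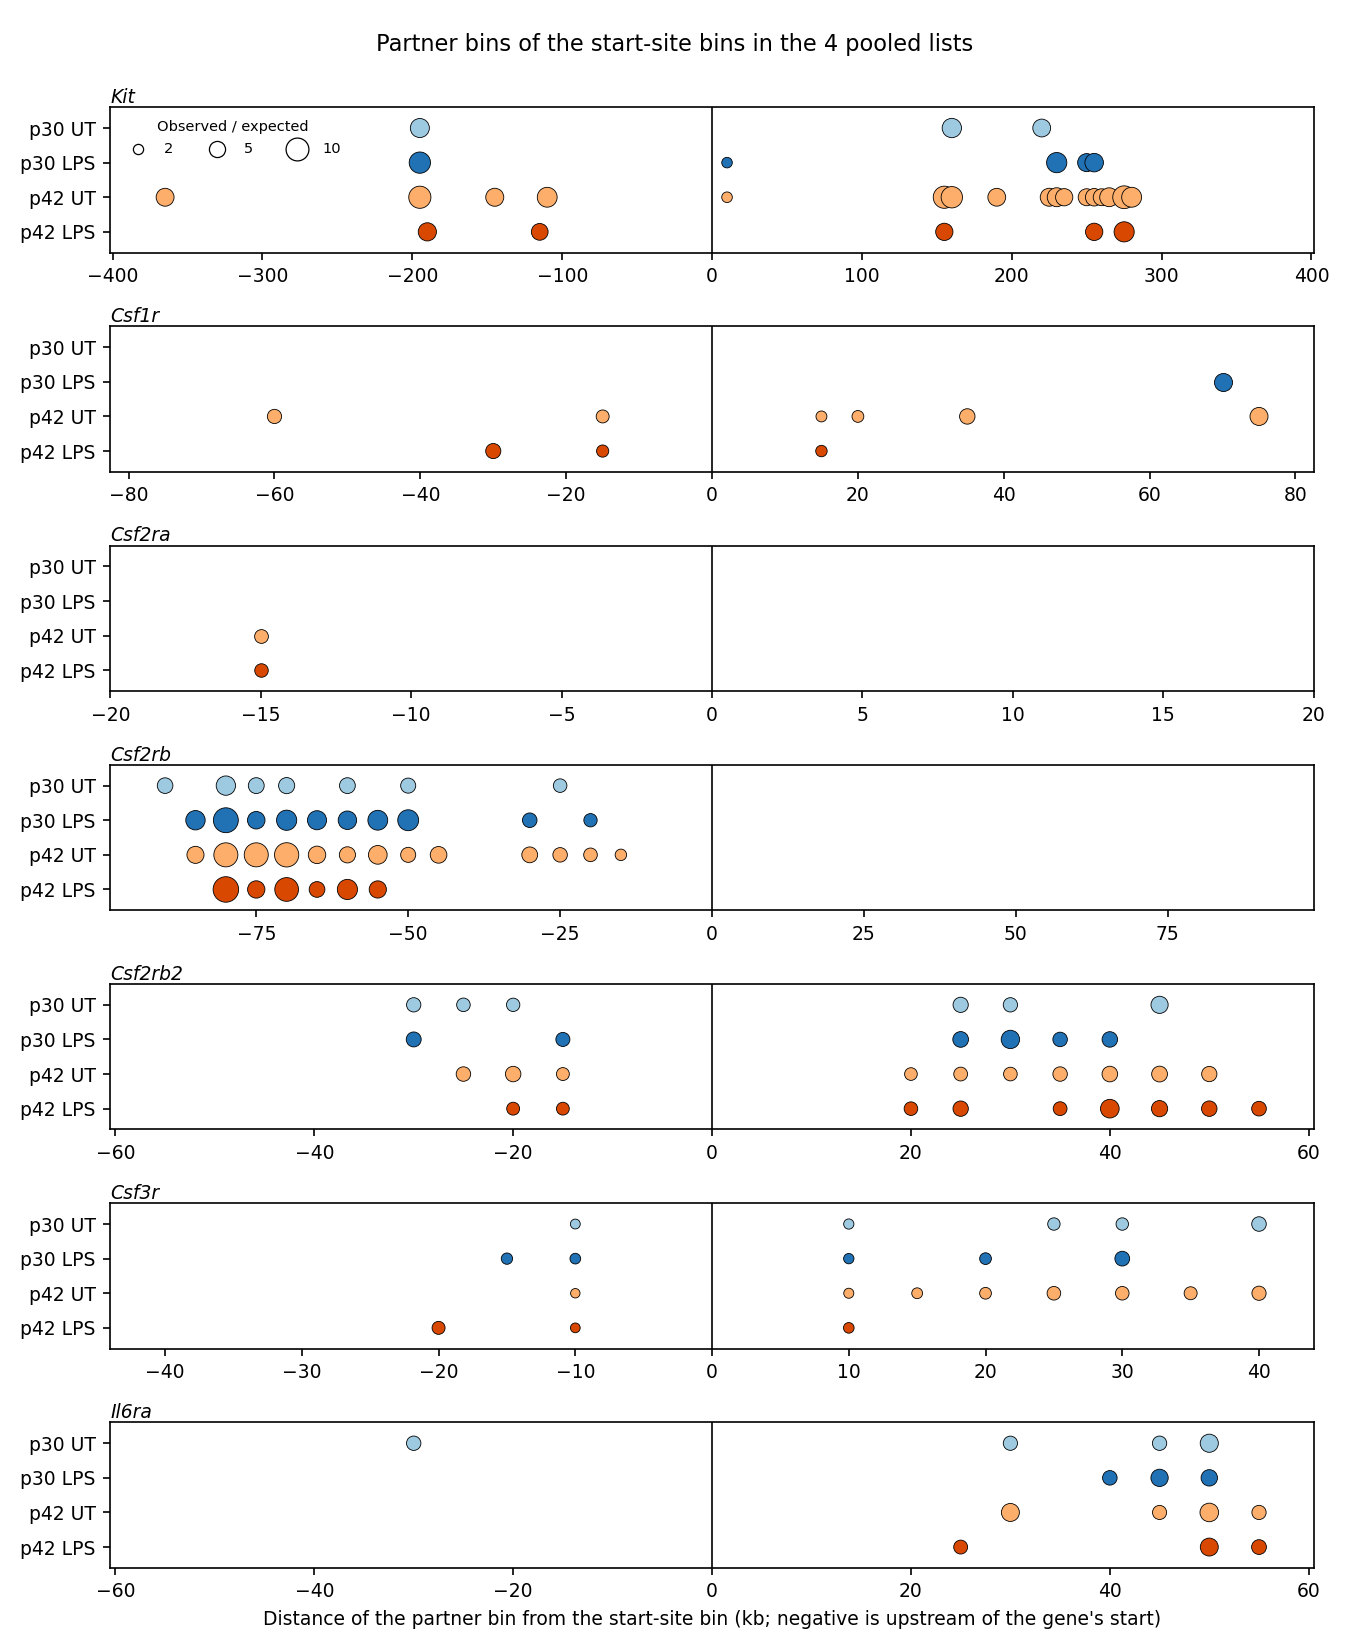
Partner bins of the start-site bins of the 7 receptor genes with a promoter loop, by distance from the start-site bin (x axis, kb, negative upstream of the gene) and list (y axis); the area of a point grows with contacts over expected contacts. *Kit* partners reached 365 kb, those of *Csf2rb* lay 15 to 90 kb upstream, and those of *Csf3r* within 40 kb.

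*Flt3*, whose tyrosine kinase is often mutated in acute myeloid leukemia, lies on the minus strand at chr5:147267551-147337483. Its start-site bin was in no list, although other bins of the gene were listed. Interactions with a bin inside the gene numbered 9 in p30 UT against 24 in p42 UT, and 1 against 3 after LPS, and 8, 1, 17 and 2 of them had both bins within *Flt3*. In lists of equal length these numbers were 9, 1, 8 and 3, and 8, 1, 6 and 2, so that the untreated p42 list no longer held more. One pair was found in 3 lists: the bins 35 and 10 kb into the gene shared 20 contacts in p30 UT, 41 in p42 UT and 14 in p42 LPS, which were 3.1, 5.4 and 3.57 times the expected counts. With a bin to either side of the start-site bin, 2 loops were found in p30 UT and 5 in p42 UT, and 0 and 1 after LPS. With equal length there were 2, 0, 1 and 1, which turned the order of the untreated lists.

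Within *Flt3*, the 2 untreated lists differed in where coverage was highest. Coverage counts the reads that fall in a bin, and relative coverage divides it by the mean over peak bins of the same list. The bin 10 kb into the gene had 2671 reads in p30 UT and 5284 in p42 UT, relative values of 1.11 and 1.82 and 1.63-fold more in p42 UT. The bin 5 kb into the gene likewise had 1.07 and 1.55, a 1.45-fold difference. At 60 kb, towards the end of the gene, the order was turned: p30 UT had 4024 reads and p42 UT 2309, relative values of 1.67 and 0.793. Bins 30, 35, 40 and 45 kb into the gene had 0.815, 0.787, 0.731 and 0.716 times the p30 UT value in p42 UT. Over the 4 scalings of coverage, the bins at 5 to 15 kb stayed above 1 and the bin at 60 kb stayed between 0.44 and 0.766, whereas the bins at 30 to 45 kb lay above 1 when the mean of bins without a peak set the scale. The LPS lists named fewer bins of the gene, 2 in p30 and 4 in p42, against 8 and 10 untreated. Where a bin was listed with and without LPS, its relative coverage was lower with LPS, 0.54 and 0.634 times the untreated value in p30 (40 and 60 kb) and 0.515 to 0.62 times in p42 (5, 10, 30 and 35 kb). Since these bins enter a list only through a loop, the bins left out may have had any coverage.

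**Figure D3:**
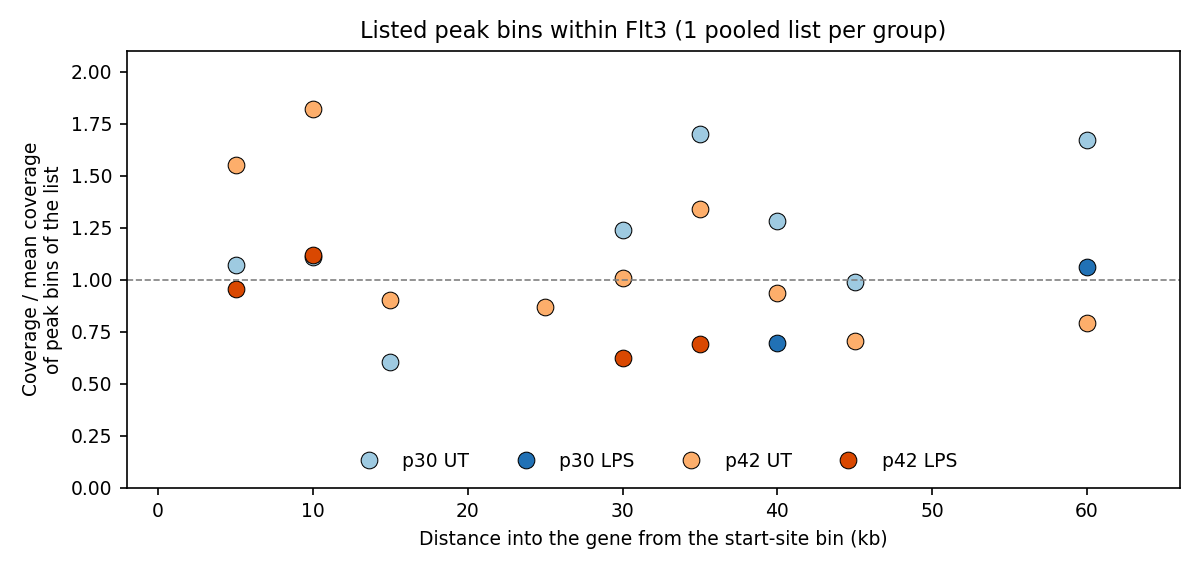
Relative coverage (y axis, reads over the mean of peak bins of the list) of the peak bins listed within *Flt3*, by distance from the start-site bin (x axis, kb); points are single pooled lists without error. At 10 kb p42 UT (1.82) lay above p30 UT (1.11), and at 60 kb p30 UT (1.67) lay above p42 UT (0.793).

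*Csf1r*, the M-CSF receptor gene at chr18:61229714-61266535 on the plus strand, had 0 promoter loops in p30 UT against 6 in p42 UT, and 1 against 3 after LPS. Partner bins 15 kb upstream and 15 kb downstream of the start were found in both p42 lists and in neither p30 list. Upstream, there were 32 contacts without and 26 with LPS in p42 cells, 3.23 and 2.85 times the expected counts, and downstream, within the gene, 27 and 25 contacts, 2.29 and 2.52 times the expected. One loop of p42 UT, with 11 contacts over 60 kb, ended at the bin with the start site of *Pdgfrb*, the neighbouring receptor tyrosine kinase gene. The bin 70 kb downstream was contacted in p30 LPS (14 contacts) and the next bin, with the start site of *Hmgxb3*, in p42 UT (15 contacts).

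The absence of promoter loops in p30 UT did not extend to the rest of *Csf1r*. The bin 5 kb downstream of the start-site bin, inside the gene, was listed in all 4 groups with 4693 reads and 6 loops in p30 UT against 4028 reads and 7 loops in p42 UT, and 3657 reads and 2 loops against 2516 reads and 3 loops after LPS. With equal length, its loops numbered 6, 2, 4 and 3. Its relative coverage was 1.95, 1.63, 1.38 and 1.3, so that the p42 value was 0.709 times that of p30 untreated and 0.795 times after LPS. With the mean of bins without a peak as the scale, the untreated ratio was 1.15. Counted over the start-site bin and both bins beside it, *Csf1r* had 6, 4, 13 and 6 loops as deposited and 6, 3, 7 and 6 with equal length.

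*Csf2rb* and *Csf2rb2*, the common and the IL-3-specific beta chain, are neighbours on chromosome 15, at 78209952 to 78238047 on the plus strand and 78166707 to 78189921 on the minus strand. Their starts are 20.3 kb apart. *Csf2rb* had 7, 10, 13 and 6 promoter loops, and 7, 9, 10 and 6 with equal length. *Csf2rb2* had 6, 6, 10 and 9, and 6, 6, 5 and 9 with equal length. Counted over the start-site bin and both bins beside it, *Csf2rb* had 23, 25, 31 and 21 loops, and 22, 24, 25 and 21 with equal length. *Csf2rb2* then had 12, 21, 23 and 16, and 12, 16, 14 and 16 with equal length, which turned the order of its untreated lists. All 14 partner bins of *Csf2rb* lay upstream, 15 to 90 kb away, on the side of *Csf2rb2*.

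The *Csf2rb* partner with the most contacts was a bin 80 kb upstream, within *Ncf4*, which encodes a subunit of the phagocyte NADPH oxidase. It was listed in all 4 groups, with 19 contacts in p30 UT, 29 after LPS in p30 cells and 34 in each p42 list, which were 7.17, 11.9, 11.1 and 12.5 times the expected counts. Of the 4 lists, p30 UT was the lowest. The bins 75, 70 and 60 kb upstream were also listed in all 4. At 70 kb there were 12, 19, 32 and 27 contacts, with p30 UT again the lowest, and at 75 kb 12, 14, 32 and 15, with p42 UT alone high. At 60 kb the values were 13, 17, 16 and 21.

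*Csf2rb2* reached the same region from nearer by. Of the 14 partner bins of *Csf2rb* and the 12 of *Csf2rb2*, 8 were shared, 57.1% and 66.7% of each, and all of these lay between 78130001 and 78170000. The partner bin found for *Csf2rb2* in all 4 lists, 25 kb downstream and beyond the end of the gene, had 20, 19, 19 and 20 contacts, with almost no spread between the lists. Loops 40, 45 and 50 kb downstream into *Ncf4* had 15, 18 and 23 contacts at 40 kb in all lists but p30 UT, 16, 16 and 15 at 45 kb in all but p30 LPS, and 15 and 14 at 50 kb in the p42 lists alone. The start-site bins of the paralogs were joined with each other in p30 UT with 16 contacts and in p42 UT with 23, 3.53 and 4.03 times the expected counts, and in neither LPS list. The sequences of the 2 genes are similar enough that reads may be placed on the wrong copy, which was not tested.

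The alpha chains that pair with these beta chains showed little. *Csf2ra*, at chr19:61212395-61216892 on the minus strand, had a single loop, to a bin 15 kb upstream, with 28 contacts untreated and 19 after LPS in p42 cells, 3.64 and 3.51 times the expected counts. Neither p30 list had an interaction with a bin of *Csf2ra*. *Il3ra*, at chr14:8113752-8123508 on the minus strand, had no interaction at its start-site bin, in the rest of the gene or in both bins beside the start in any list. Within 300 kb on both sides of its start-site bin, 4 to 14 interactions were listed.

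*Csf3r*, the G-CSF receptor gene at chr4:125918262-125938236 on the plus strand, had the highest start-site coverage of the receptor genes in every list: 6638 reads in p30 UT against 9559 in p42 UT, and 7474 against 4916 after LPS. Its promoter loops numbered 5, 5, 8 and 3, and 5, 4, 3 and 3 with equal length. They were short, with median distances of 25, 15, 22.5 and 10 kb, where all promoter loops had medians of 45 to 50 kb. Their median ratios to the expected counts were 2.95, 2.46, 2.94 and 2.17. All promoter loops, which were not matched for distance, had medians of 4.59 to 4.71. The median contacts of the *Csf3r* loops were 24, 33, 29.5 and 49, against 19 to 20 for all promoter loops.

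Both bins 10 kb away from the *Csf3r* start-site bin were partners in all 4 lists. Upstream, there were 59, 64, 66 and 49 contacts, and downstream, within the gene, 65, 63, 76 and 61. The ratios to the expected counts were 1.87, 2.19, 1.71 and 1.83 upstream and 2.01, 2.06, 1.94 and 2.17 downstream, and no list stood apart. Further downstream, the bin 25 kb away with the start site of *Mrps15* was a partner in p30 UT (24 contacts) and p42 UT (32), and the bin 35 kb away with that of *Oscp1* in p42 UT (17). Loops to bins 25 to 40 kb downstream numbered 3 and 4 in the untreated p30 and p42 lists and 1 and 0 after LPS, and 3, 1, 2 and 0 with equal length.

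*Il6ra*, the IL-6 receptor gene at chr3:89771366-89820719 on the minus strand, had 4, 3, 4 and 3 promoter loops as deposited, and 4, 2, 2 and 3 with equal length. A bin 50 kb downstream, at the far end of the gene, was the partner found in all 4 lists, with 18, 13, 21 and 17 contacts and ratios of 6.31, 5.16, 6.63 and 6.19. A loop within the gene to the bin 30 kb downstream had 18 contacts in p30 UT and 29 in p42 UT, and p42 LPS had one of 16 contacts to the bin beside it. The bin 5 kb into the gene had more reads than the start-site bin in all 4 lists (4651, 4060, 6272 and 3484 against 3105, 2566, 4540 and 2387) and 8 to 10 loops.

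To compare the strength of contacts rather than the number of loops, the contacts of loops listed in all 4 groups were summed per gene and given as the share that came from the first of 2 lists, with a 95% Wilson interval that covers counting error only. The share expected from the modelled contacts alone was 51.4% for p42 UT over p30 UT, 52.2% for p42 LPS over p30 LPS, 44.7% for p30 LPS over p30 UT and 45.5% for p42 LPS over p42 UT. Only *Csf2rb*, *Csf2rb2*, *Csf3r* and *Il6ra* had such loops, 4, 1, 2 and 1 of them.

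*Csf2rb* gave 67.1% of its contacts from p42 UT (114 against 56 in p30 UT, interval 59.7% to 73.7%), above the expected share. With only loops at a q-value under 1e-05 in all 4 lists, 1 loop remained, 80 kb upstream, with 34 contacts in p42 UT and 19 in p30 UT. The excess over the expected share was then 12.8 percentage points, against 15.7 before. The interval widened to 50.7% to 75.7% and held the expected share. Over its 4 loops, *Csf2rb* also gave 58.5% from p30 LPS (79 against 56, interval 50.1% to 66.5%), above the expected share of LPS over UT in p30. It was the only receptor gene of 4 to do so in either comparison, where 39.4% and 30.1% of the 5045 genes with such loops lay above and 1.19% and 0.674% below. After LPS, the *Csf2rb* share in p42 over p30 was 55.1% (interval 47.7% to 62.3%), and that of LPS in p42 was 46% (39.4% to 52.7%), both with the expected share inside the interval. *Csf3r*, with the most contacts, gave 53.4% (47.4% to 59.3%), 46.4% (40.2% to 52.8%), 50.6% (44.5% to 56.7%) and 43.7% (37.7% to 49.8%) in the 4 comparisons, all with the expected share inside. For none of the 4 genes did the interval exclude the expected share for p42 LPS over p30 LPS, where 1.76% of all genes were above and 27.2% below, or for p42 LPS over p42 UT, where 0.614% were above and 36.1% below.

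*Kit*, *Csf1r* and *Csf2ra* entered only when loops found in both lists of a comparison were used. *Kit* then gave 58.5% of 53 contacts from p42 UT against p30 UT (interval 45.1% to 70.7%) and 40% of 70 from p42 LPS against p42 UT (29.3% to 51.7%). *Csf1r* gave 46.4% of 110 (37.3% to 55.6%) and *Csf2ra* 40.4% of 47 (27.6% to 54.7%) in the latter comparison. These intervals all held the expected share, and a difference was not detectable at these numbers of contacts. With 84 and 151 contacts, the *Csf2rb* share of p42 UT was 64.3% (57.9% to 70.1%), still above.

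**Figure D4:**
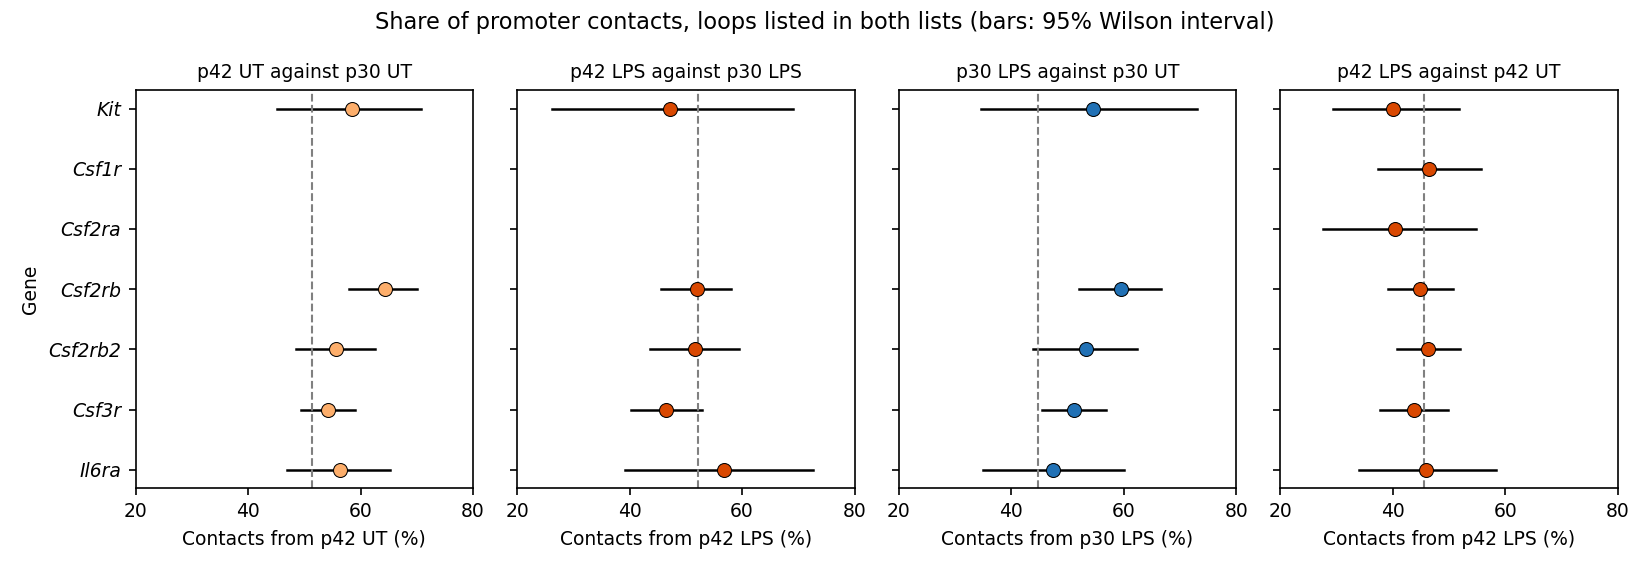
Share of promoter contacts (x axis, percent) that came from the first list of each comparison, over loops found in both lists, per gene (y axis); bars are 95% Wilson intervals and the dashed line is the share expected from the modelled contacts. *Csf2rb* lay above the line for p42 UT over p30 UT (64.3%) and p30 LPS over p30 UT (59.5%), as did *Csf3r* in the latter (51.2%).

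Coverage of the start-site bins was compared as the difference of log2 relative coverage. In p42 UT, all 5 receptor genes listed in both untreated groups had higher relative coverage than in p30 UT, under each of the 4 scalings tried: *Csf2rb* by 0.35 (1.13 against 1.44), *Kit* by 0.34 (1.18 and 1.49), *Il6ra* by 0.27 (1.29 and 1.56), *Csf3r* by 0.25 (2.76 and 3.28) and *Csf2rb2* by 0.21 (0.718 and 0.832). The median difference of all 7715 start-site bins listed in both was 0.06. By modelled contacts and by bins without a peak it was 0.26 and 0.76. Scaled by the median of start-site bins it was -0.05, and the 5 genes had 0.10 to 0.24. Relative to peak bins, none of the 5 reached 1.5-fold, as 3.6% of all bins did upwards and 1.34% downwards. All 5 did so upwards relative to bins without a peak, where 73.1% of all bins did.

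After LPS, *Csf3r* had lower relative coverage in p42 than in p30 by each scaling (3.34 against 2.54, log2 difference -0.40). The values of *Csf2rb*, *Csf2rb2*, *Kit* and *Il6ra* were 0.10 to 0.17 higher in p42 LPS and turned negative when scaled by modelled contacts or by bins without a peak, scalings that moved the median of all bins from -0.11 to -0.45 and -0.58. All 4 values remained above that median. *Csf1r*, with 1.37 and 1.31, turned positive when scaled by the median of start-site bins. Of all bins, 1.62% and 3.58% were at least 1.5-fold higher and lower, but none of the 6 receptor genes. *Csf3r* alone of the 6 was at least 1.5-fold lower by modelled contacts and by bins without a peak, with 29.4% and 49.6% of all bins.

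With LPS in p30 cells, *Csf3r* had a relative coverage of 2.76 untreated and 3.34 after LPS, a log2 difference of 0.27 that was positive by every scaling, as were those of *Csf2rb* (0.13) and *Csf2rb2* (0.11). *Kit*, with 1.18 and 1.03, and *Il6ra*, with 1.29 and 1.15, had negative differences that turned positive when scaled by modelled contacts or by bins without a peak. These scalings moved the median of all bins from 0.04 to 0.25 and 0.57, and both genes remained below it. In p42 cells, relative coverage was lower with LPS by each scaling at *Kit* (1.49 and 1.12, log2 difference -0.42), *Csf3r* (3.28 and 2.54, -0.37) and *Il6ra* (1.56 and 1.23, -0.34). The values of *Csf2rb*, *Csf2rb2*, *Csf1r* and *Csf2ra* lay between -0.08 and 0.21 and changed sign with the scaling. At least 1.5-fold higher and lower were 1.83% and 0.333% of all bins with LPS in p30 cells and 0.7% and 1.06% in p42 cells, and none of the 5 and 7 receptor genes listed in both groups, relative to peak bins. By bins without a peak, *Csf2rb*, *Csf2rb2* and *Csf3r* were at least 1.5-fold higher with LPS in p30 cells, with 47.8% of all bins. In p42 cells, *Kit*, *Csf3r* and *Il6ra* were at least 1.5-fold lower by modelled contacts, with 24% of all bins, and 5 of the 7 by bins without a peak, with 82.3%.

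**Figure D5:**
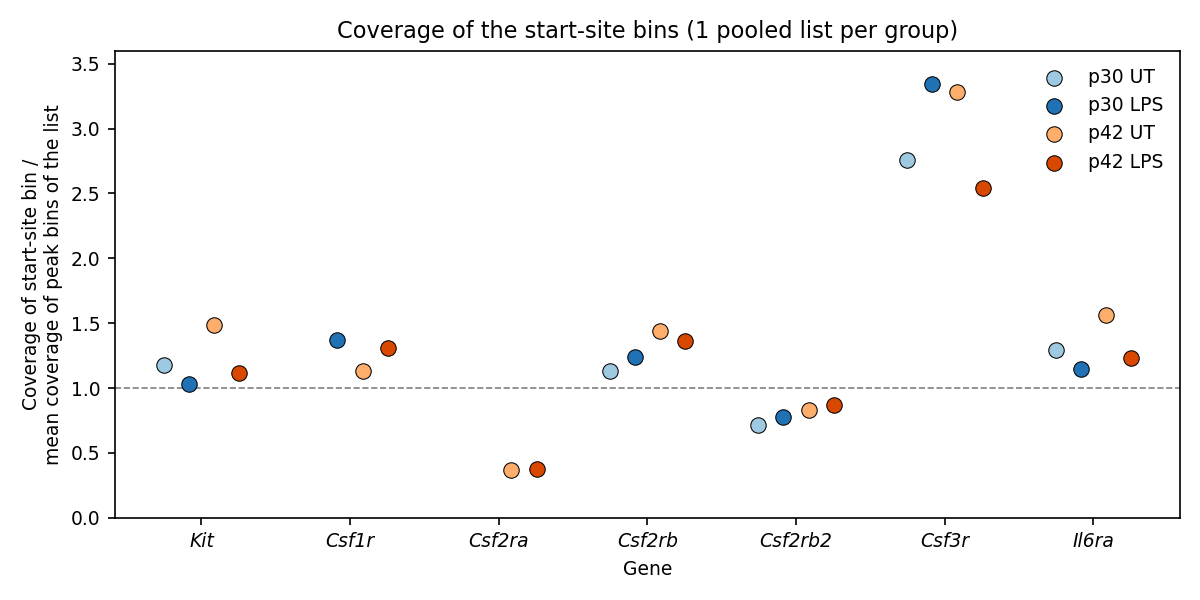
Relative coverage (y axis, reads of the start-site bin over the mean of peak bins of the list, dashed line at 1) of the 7 receptor genes with a listed start-site bin; points are single pooled lists without error. *Csf3r* lay between 2.54 and 3.34 and *Csf2ra* below 0.38.

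Other genes of the same signalling pathways were taken from lists of 9 ligands, 14 further receptors and 21 signalling genes. A promoter loop in at least 1 list was found for 5 of the 9 ligands, 6 of the 14 receptors and 21 of the 21 signalling genes. Per list, 5, 5, 4 and 4 ligands, 4, 5, 5 and 4 receptors and 20, 20, 21 and 20 signalling genes held one. Of all protein-coding genes, 37.2%, 38.8%, 44.8% and 35.1% did. In lists of equal length, 5 of 29 genes with a loop had more in p42 UT than in p30 UT and 15 fewer, a median difference of -1, where 41.7% of all genes had more and 37.7% fewer. After LPS, 8 of 30 had more in p42 than in p30 and 15 fewer, against 33.7% and 46.8% of all genes. With LPS in p30 cells, 15 of 30 had more and 7 fewer (42.2% and 36.8% of all genes), and in p42 cells 12 of 28 had more and 11 fewer (31.8% and 46.5%). Neither *Kitl*, the gene of SCF, nor *Il6st*, the signalling partner of IL6RA, had a promoter loop in any list, and *Epor*, the erythropoietin receptor gene, had 1 in p42 UT alone as deposited and none with equal length.

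Downstream of the receptors, the kinase gene *Jak2* had 3, 6, 1 and 3 promoter loops as deposited and 3, 5, 1 and 3 with equal length. Of the STAT factor genes, *Stat3* had 2, 6, 6 and 3 and *Stat5a* 11, 12, 15 and 5, and with equal length 2, 4, 4 and 3 and 11, 11, 10 and 5. Of the feedback inhibitor genes, 2 had 9, 16, 15 and 14 (*Socs3*) and 9, 14, 11 and 13 (*Cish*), and with equal length 9, 14, 12 and 14 and 9, 14, 6 and 13. For these 2 the untreated p30 list was below both LPS lists. The other inhibitor genes of the SOCS family in the list, named after their values were seen, did not share this order: *Socs1* had 6, 3, 4 and 5 loops (6, 2, 1 and 5 with equal length), and *Socs2* 1 in p42 UT alone.

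The start-site coverage pattern most like that of *Csf2rb* across the 4 lists, by Euclidean distance of log2 relative coverage among 5966 genes on other chromosomes, was that of *Marchf7* (0.06), followed by *Hipk2* (0.09). For *Csf2rb2* these were *Sik2* (0.07) and *Sys1* (0.10), and for *Kit*, among 5852 genes, *Slc35b4* (0.11) and *Armc12* (0.16).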

How the data were processed

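H3K27ac HiChIP interactions of 8 HPC-7 libraries in 4 groups were used as 4 lists, 1 per group, with both replicates pooled in a way that is not stated. Per the study's methods and the labels, the authors mapped reads to mm39 with BWA 0.7.17, removed duplicates with pairtools and called interactions with FitHiChIP in 5 kb bins at a q-value under 0.01. The deposited contact count is a whole number of ligated fragments without normalization. The expected count deposited by the authors is the caller's estimate from distance and coverage, and the deposited contact probability is that estimate as a fraction of the modelled contacts. Because the caller corrects for coverage in the expected count, a difference in H3K27ac itself may be partly removed from the ratios to expected counts and from the q-values. Deposited q-values were used only to rank and filter interactions, and other deposited columns give coverage, a peak flag and distance.

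From these, modelled contacts were computed by dividing the expected count by the contact probability, and the mean coverage of peak bins as coverage over the caller's bias. Start sites were those of canonical transcripts of 21757 protein-coding genes (GENCODE M39, GRCm39). A gene was called where its 95% Wilson interval excluded the share of modelled contacts, or where relative coverage differed at least 1.5-fold. No test across replicates was possible and no p-value was computed. Scripts used Python 3.11.15, pandas 2.3.3, numpy 2.4.6 and scipy 1.17.1 and were tested on simulated data. The alternatives were lists of equal length, q-values under 0.001 and 1e-05, a minimum of 10 contacts or of 20 kb, joined adjacent bins, a window of 3 bins, other sets of loops and 3 other scalings. Equal length was tried for loops away from the start site after the data were seen. The members and lists were chosen with earlier results of these data known. Named are all 9 receptor genes, 8 genes of the pathway lists by the rule (1 more is not reported here), *Socs1* and *Socs2* of these lists outside it, neighbouring genes at partner bins, and for the 3 receptor genes with the most loops the 2 genes most like them in coverage.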

Additional observations from a re-analysis of the deposited data

Results flagged for a closer look

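For some receptor genes, LPS went with a change in one direction in the p30 list and in the opposite direction in the p42 list. These differences rest on 1 pooled list per group and were not tested. As deposited, the number of promoter loops of *Kit* changed with LPS by 2 in p30 cells and by -12 in p42 cells, which differ by -14. For *Csf2rb* the changes were 3 and -7 (differing by -10) and for *Csf1r* 1 and -3 (differing by -4). Of all genes, 53.1% had more loops with LPS in p30 cells and 87.3% had fewer in p42 cells as deposited. With equal length these shares were 42.2% and 46.5%. In lists of equal length, *Kit* had 3 and 5 loops in p30 UT and LPS and 6 and 5 in p42, *Csf2rb* 7 and 9 and then 10 and 6, and *Csf1r* 0 and 1 and then 3 and 3, so that the opposite change of *Csf1r* was gone and that of *Kit* in p42 was a single loop. The log2 relative coverage of the *Csf3r* start-site bin changed by 0.27 in p30 cells and -0.37 in p42 cells, which differ by -0.65, with the same signs under the 3 other scalings. The median of all start-site bins had these signs too by peak bins (0.04 and -0.14), modelled contacts (0.25 and -0.46) and bins without a peak (0.57 and -0.77). Scaled by the median of start-site bins, it was -0.02 and 0.01, and *Csf3r* had 0.21 and -0.22. The log2 relative coverage of *Csf2rb* changed by 0.13 and -0.08 (differing by -0.21), and the second sign turned when scaled by the median of start-site bins.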

How the results depend on the processing

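No paired analysis was possible because the replicates of each group were pooled into 1 list, and for the same reason no replicate could be left out. The number of receptor genes with more promoter loops in p42 UT than in p30 UT, 6 as deposited, was 3 when adjacent partner bins were counted once and 4 to 7 under the 7 other settings. The number with fewer went from 0 to 4 with adjacent bins counted once and was 0 to 3 under the others. For p42 LPS over p30 LPS it was 3, with 2 genes having fewer, and 1 against 4 at a q-value under 1e-05. The balance also turned at a q-value under 0.001 (3 against 4), and the numbers were equal with loops of at least 20 kb (2), at least 10 contacts (3) and a window of 3 bins (4). For LPS over UT it was 3 against 1 in p30, 5 against 1 at a q-value under 0.001, and equal with adjacent bins counted once (2) and loops of at least 20 kb (3). In p42 it was 0 against 6, 2 against 2 in lists of equal length, 2 against 3 when adjacent bins were counted once and 2 against 3 with a window of 3 bins in lists of equal length. Of the contact shares, none changed direction where called. That of *Csf2rb* for p42 UT over p30 UT no longer excluded the expected share over loops at a q-value under 1e-05 (interval 50.7% to 75.7%). This setting left 1 *Csf2rb* loop, with an excess of 12.8 percentage points against 15.7 before. Under it, *Csf2rb2*, *Csf3r* and *Il6ra* had no loop to compare. The share of *Csf3r* for p30 LPS over p30 UT came to lie above the expected share over loops in both lists (51.2%). Scaling moved the median of all start-site bins for p42 UT over p30 UT from 0.06 to 0.26 with modelled contacts and 0.76 with bins without a peak, and for p42 LPS over p42 UT from -0.14 to -0.46 and -0.77, so that changes under these scalings are to be read against those shifts. The cause of these dependences was not tested. Between 8 and 76 contacts stood behind each promoter loop of the receptor genes, which limits what a single loop can show.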
